A study of Mus musculus with 20 samples.

Results

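The comparison described here is that of 5-formylcytosine (5fC) in the hindbrain of Tdg null and wild-type (WT) mouse embryos at E11.5. It rests on 8 of the 20 libraries of the series, 4 from WT and 4 from Tdg null hindbrain, chosen by the tissue and genotype given in the labels. By the labels, 4 litters (A, O, Q and Z) gave 1 embryo of each genotype. Per the study's methods, the null allele lacks the part of Tdg that encodes the catalytic domain and carries a neomycin resistance cassette. Heterozygotes were intercrossed and homozygous null embryos were compared with WT embryos of the same litter, with no treatment in either group. Sonicated genomic DNA was labelled at 5fC with a cleavable biotin probe, captured on streptavidin and sequenced. The values analysed are the deposited peak intervals of each library on the 19 autosomes, without heights or read counts.

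DNA methyltransferases place 5-methylcytosine mainly at CpG dinucleotides, and TET enzymes oxidise it stepwise to 5-hydroxymethylcytosine, 5fC and 5-carboxylcytosine. TDG, a DNA glycosylase, excises 5fC and 5-carboxylcytosine, and base excision repair then restores an unmodified cytosine. In tissue that lacks TDG, 5fC is therefore not removed by this route, and a pull-down marks sites where it was produced and remained. Per the study's methods, some captured regions are false positives from DNA without 5fC. Hindbrain at mid-gestation contains neural progenitors, young neurons, mesenchyme, vessels and blood, and whole tissue was used.

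Examples of the sequence under the peaks are printed here because the comparison turns on which loci were marked in which genotype. They are the middle 300 bases of the longest stretches of each kind, on the plus strand of NCBIM37 (mm9), with CpG dinucleotides in capitals. The first pair lay under peaks of all 8 libraries. The intergenic chr13 stretch, 46.6 kb from Zfp825, was 2700 bp long, and the middle 31 bases occurred 198 times in the autosomes. The intergenic chr15 stretch, 21.7 kb from Ly6c2, was 1800 bp long, with a middle found once.
All 8 libraries, chr13:74667001-74667300: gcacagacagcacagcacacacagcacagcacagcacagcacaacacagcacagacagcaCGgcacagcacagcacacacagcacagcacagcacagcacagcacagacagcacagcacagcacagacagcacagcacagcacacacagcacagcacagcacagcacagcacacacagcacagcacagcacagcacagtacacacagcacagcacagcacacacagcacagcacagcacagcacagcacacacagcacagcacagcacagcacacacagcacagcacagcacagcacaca
All 8 libraries, chr15:74916551-74916850: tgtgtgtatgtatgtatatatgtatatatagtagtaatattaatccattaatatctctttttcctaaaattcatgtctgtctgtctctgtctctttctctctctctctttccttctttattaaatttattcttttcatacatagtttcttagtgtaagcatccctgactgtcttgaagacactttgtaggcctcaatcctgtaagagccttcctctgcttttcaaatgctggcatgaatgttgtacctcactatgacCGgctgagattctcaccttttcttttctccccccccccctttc

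The next pair lay in stretches under peaks of at least 3 WT libraries and of no Tdg null library. All 4 WT libraries had a peak in some part of each stretch, though not always over the bases printed. The chr8 stretch of 36400 bp, whose middle 31 bases occurred 4 times in the autosomes, reached from Gm15319 to the intergenic sequence beside it. The second, of 1800 bp, was intergenic and 100 kb from Haus8.
WT only, chr8:19969451-19969750: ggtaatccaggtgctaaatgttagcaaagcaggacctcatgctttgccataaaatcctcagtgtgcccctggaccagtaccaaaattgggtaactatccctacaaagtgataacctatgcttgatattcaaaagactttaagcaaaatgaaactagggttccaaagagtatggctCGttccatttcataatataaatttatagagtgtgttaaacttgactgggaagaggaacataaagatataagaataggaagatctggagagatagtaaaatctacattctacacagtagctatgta
WT only, chr8:73672051-73672350: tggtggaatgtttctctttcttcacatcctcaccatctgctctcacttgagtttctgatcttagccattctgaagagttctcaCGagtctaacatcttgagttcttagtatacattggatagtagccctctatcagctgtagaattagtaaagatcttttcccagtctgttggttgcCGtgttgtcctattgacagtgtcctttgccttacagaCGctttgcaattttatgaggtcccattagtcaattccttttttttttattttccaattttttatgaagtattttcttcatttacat

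The third pair lay under peaks of all 4 Tdg null and of no WT library, in stretches of 3800 and 3600 bp. The chr5 stretch was intergenic, 192 kb from Pitpnb, and the chr8 stretch was in an intron of Wwox. These printed windows held 4 and 8 CpGs, against 1, 1, 1 and 3 in the 4 sequences above.
Tdg null only, chr5:111567151-111567450: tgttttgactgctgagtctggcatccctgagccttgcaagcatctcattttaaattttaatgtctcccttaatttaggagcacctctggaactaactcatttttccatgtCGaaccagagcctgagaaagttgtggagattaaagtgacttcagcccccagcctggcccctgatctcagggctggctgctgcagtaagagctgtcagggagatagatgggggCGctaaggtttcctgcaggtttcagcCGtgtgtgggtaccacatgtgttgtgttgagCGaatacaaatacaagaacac
Tdg null only, chr8:117666651-117666950: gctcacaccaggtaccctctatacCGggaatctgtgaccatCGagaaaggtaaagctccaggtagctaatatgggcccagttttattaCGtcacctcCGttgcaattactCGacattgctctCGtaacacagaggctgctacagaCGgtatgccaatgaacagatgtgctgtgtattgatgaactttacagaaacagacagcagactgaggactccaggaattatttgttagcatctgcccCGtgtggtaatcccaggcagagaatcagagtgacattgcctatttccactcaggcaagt

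Since the longest stretches common to all 8 libraries were poor in CpG, 2 examples within genes were added after the values were seen. Both had at least 30 CpGs per kb and a middle that was unique in the autosomes. They lay in introns of Eftud1 and Bahcc1, in stretches with 46.7 and 39.0 CpGs per kb, and the printed windows held 14 and 11 CpGs. Parts of the Eftud1 sequence recurred within its printed window, so only the middle of that stretch was shown to be unique.
All 8 libraries, Eftud1 intron, chr7:89919951-89920250: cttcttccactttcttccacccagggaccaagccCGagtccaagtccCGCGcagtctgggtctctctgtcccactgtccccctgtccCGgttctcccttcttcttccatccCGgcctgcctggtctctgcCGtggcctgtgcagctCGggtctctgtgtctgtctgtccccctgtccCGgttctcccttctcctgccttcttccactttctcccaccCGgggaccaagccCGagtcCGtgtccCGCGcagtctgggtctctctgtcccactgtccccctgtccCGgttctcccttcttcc
All 8 libraries, Bahcc1 intron, chr11:120141651-120141950: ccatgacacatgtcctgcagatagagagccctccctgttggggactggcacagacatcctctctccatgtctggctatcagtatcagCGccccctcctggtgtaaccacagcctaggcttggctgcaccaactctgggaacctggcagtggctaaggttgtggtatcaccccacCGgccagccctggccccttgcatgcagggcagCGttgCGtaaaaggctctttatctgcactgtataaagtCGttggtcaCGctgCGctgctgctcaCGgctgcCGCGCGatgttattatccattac

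Peaks were far more numerous in the absence of TDG, and the WT libraries differed greatly among themselves. Autosomal peaks numbered 1515, 8902, 21063 and 1507 in WT litters A, O, Q and Z, and 119321, 103099, 131192 and 128422 in the Tdg null embryos of those litters. They covered 0.904, 4.47, 11.6 and 0.856 Mb in WT and 91.4, 68.0, 89.5 and 93.2 Mb in Tdg null hindbrain. The groups did not overlap in either measure, and relative to their level the WT libraries differed more among themselves than the Tdg null libraries. The median peak was 500 bp long in each WT library and 600 to 700 bp in the Tdg null libraries. With intervals alone, more 5fC at a site, more cells that carry it there and a deeper or better enriched library cannot be told apart.

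**Figure D1:**
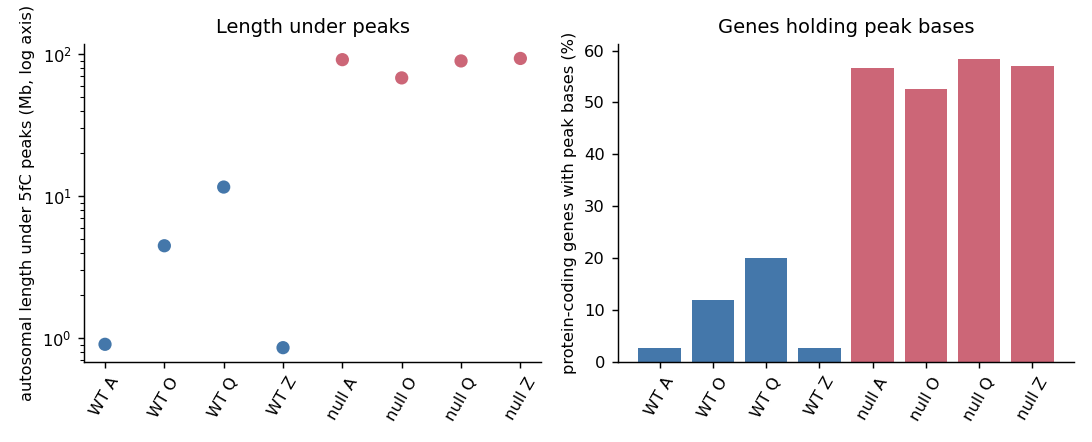
Length under 5fC peaks (Mb, log axis) and percentage of 21418 protein-coding autosomal genes with peak bases, for each WT (blue) and Tdg null (red) hindbrain library. WT libraries covered 0.856 to 11.6 Mb and marked 2.65% to 20.1% of genes, and Tdg null libraries 68.0 to 93.2 Mb and 52.6% to 58.3%.

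Most sites marked in WT hindbrain were also marked without TDG, while most sites marked without TDG had no WT peak. Of the WT peaks of litters A, O, Q and Z, 86.9%, 92.5%, 87.6% and 81.6% touched a peak of at least 1 Tdg null library. The null peaks together lay over 5.96% of the autosomes. Within litters, 75.0%, 83.0%, 78.1% and 76.1% of WT peaks touched a peak of the Tdg null embryo of the same litter. In the opposite direction, 13.6%, 17.6%, 14.7% and 15.9% of Tdg null peaks touched a peak of any WT library, and all WT peaks together lay over 0.558% of the autosomes. These shares follow the covered lengths as well as the sites, and no test was made of them.

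Tdg null libraries resembled each other. The bases shared by any pair of them were 44.5% to 56.4% of the bases covered by either. For WT pairs, whose unequal lengths limit it, this share was 5.16% to 27.3%. Of the bases of WT litters A and Z, 76.4% and 71.3% lay under peaks of WT litter Q. The 27.3% was that of litters A and Z, the libraries with fewest peaks, which shared 41.8% and 44.1% of their bases and so were not the same library deposited again. Of all autosomal bases, 1.73% lay under peaks of all 4 Tdg null libraries.

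Bases under peaks were richer in CpG and in GC than the genome in both genotypes, and every WT library was above every Tdg null library in both measures. The number of CpG dinucleotides per kb of peak bases was 19.4, 21.6, 20.5 and 20.5 in the WT libraries and 16.5, 17.5, 17.1 and 16.9 in the Tdg null libraries, against 8.51 for the autosomes. The means were 20.5 ± 0.892 and 17.0 ± 0.401 (SD, n = 4 each). A two-sided exact permutation test gave p = 0.0286, the smallest possible for 4 against 4, and an adjusted p of 0.0571 over the 4 properties tested, which misses the threshold. GC content was 48.3% ± 0.333 in WT hindbrain and 47.5% ± 0.217 without TDG (SD, n = 4 each; exact permutation p = 0.0286, adjusted p = 0.0571) and 41.9% in the autosomes. Paired by litter, neither test can go below p = 0.125, the value obtained for both by exact sign flips, with Tdg null lower in all 4 litters. With peaks of at least 600 bp the CpG difference was -2.13 in place of -3.51 (unadjusted exact permutation p = 0.0571).

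The share of peak bases in gene bodies is given as a description, without a test, since it was looked at after its values were seen. Gene bodies held 40.3%, 49.8%, 49.1% and 40.6% in WT litters A, O, Q and Z and 51.1% to 51.8% in the Tdg null libraries, against 39.5% of the autosomes. The mean difference, 6.43 percentage points, was 1.94 without WT litters A and Z.

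In long genes and near start sites the genotypes overlapped. Gene bodies over 100 kb long held 22.2%, 32.7%, 33.1% and 22.3% of peak bases in WT litters A, O, Q and Z, and 31.5% to 32.6% in the Tdg null libraries, against 23.5% of the autosomes. WT litters A and Z lay near the genome value and litters O and Q with the Tdg null libraries. The mean difference was 4.61 percentage points (two-sided exact permutation p = 0.429). Within 1 kb of a transcription start lay 2.86%, 1.26%, 1.27% and 2.41% of WT peak bases and 2.11% to 2.44% of Tdg null peak bases, with 1.69% of the autosomes there. Here litters A and Z were at the level of the Tdg null libraries or above it and litters O and Q below the genome value, with a mean difference of 0.324 points (exact permutation p = 0.4).

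**Figure D2:**
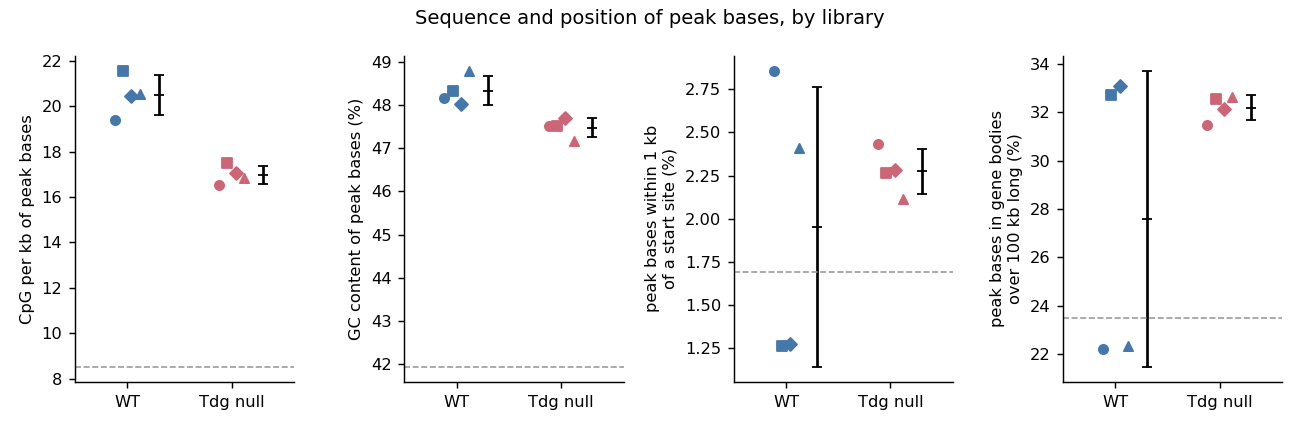
CpGs per kb, GC content (%), share within 1 kb of a transcription start (%) and share in gene bodies over 100 kb long (%) of the peak bases of each library, with the mean and SD of 4 libraries beside the points and the autosomal value as a dashed line. Markers give litters A (circle), O (square), Q (diamond) and Z (triangle), and the genotypes are apart for CpG and GC but not for either share near or within genes.

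The sequence at sites gained without TDG, kept in both genotypes and seen in WT alone was described over stretches of the genome, without a test. Stretches under all 4 Tdg null and no WT library numbered 64689 and spanned 33467 kb, with 17.8 CpGs per kb. The middle 31 bases were unique in the autosomes in 98.2% of them. Kept stretches, under at least 2 WT and all 4 Tdg null libraries, numbered 4761 over 2390.0 kb, with 24.6 CpGs per kb, the densest of these classes, and 96.5% were single-copy. Only 280 stretches, 155 kb in all, lay under peaks of all 8 libraries, and 65.0% of those were single-copy.

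Stretches seen in WT and in no Tdg null library were few and often repeated in the autosomes. Those under at least 3 WT and no Tdg null library numbered 187 over 92.3 kb, with 8.71 CpGs per kb, close to the 8.51 of the autosomes. Single-copy middles made up 31.6% of them and middles with 10 or more copies 44.4%. Along the autosomes, sampled every 10 kb, the same shares were 81.5% and 10.4%. In all, 15 of the 187 (8.02%) lay in the first Mb of assembled sequence of a chromosome, where mouse centromeres adjoin, against 0.405% of the stretches under all 4 Tdg null and no WT library. Of the 280 stretches under all 8 libraries 4.64% lay there, and 15% had middles with 10 or more copies. Reads of repeated sequence can be placed at any copy, and their part in these stretches was not tested.

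Genes were classed by whether any peak base lay in the gene body. Of 21418 protein-coding autosomal genes, 568, 2578, 4312 and 583 held peak bases in WT litters A, O, Q and Z, and 12112, 11260, 12497 and 12222 in the Tdg null embryos. No WT library came near the lowest Tdg null library. Genes gained, with no peak base in WT and some in all 4 Tdg null libraries, numbered 5393 (25.2%). Genes kept, with peak bases in at least 2 WT and all 4 Tdg null libraries, numbered 2269 (10.6%), and 212 genes held peak bases in all 8 libraries. Genes lost, with peak bases in at least 2 WT and no Tdg null library, numbered 11.

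Of 4773 genes with a peak base in any WT library, 4680 also had one in at least 1 Tdg null library. A further 2139 genes were marked in exactly 1 WT and all 4 Tdg null libraries, and 7172 genes (33.5%) had no peak base in any library. Kept genes were long, with a median of 116 kb and 56.5% over 100 kb. Gained genes had a median of 25.3 kb with 6.27% over 100 kb, and genes without peaks 3.53 kb. The classes moved with the number of peaks: when each Tdg null library was thinned at random to the peak number of the WT library of its litter, 2 genes were gained, 71 kept and 441 lost.

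The 10 genes gained with the highest scaled share in Tdg null hindbrain held 8285 to 19464 peak bases in each Tdg null library. The scaled share is the peak bases in the gene body per Mb of autosomal peak bases of the library. Ano2, a calcium-activated chloride channel, held no peak base in any WT library and 19464, 12400, 15900 and 13400 in Tdg null litters A, O, Q and Z. Runx2, the transcription factor of bone formation, went from none to 15400, 11700, 14000 and 13300 bases. Cacna1a, the pore subunit of P/Q-type calcium channels, went from none to 11900, 9100, 12700 and 17000. In each of these genes every Tdg null library held peaks over several kb of the gene body, and litter O was the lowest.

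Lima1, an actin-binding protein, held 11100 to 15100 bases in the Tdg null libraries, which was 13.2% ± 1.89 of the 97.0 kb gene body (SD, n = 4). Ppap2b, a lipid phosphate phosphatase, had peaks over 14.9% ± 1.86 of 75.4 kb. Lrrfip1 (10.2% ± 1.65), Cnnm2, a magnesium transporter (10.1% ± 2.23), St6gal1, a sialyltransferase (8.61% ± 1.47), Mcf2l, a nucleotide exchange factor of small GTPases (8.02% ± 1.12), and Plekhg1, of the same activity (5.40% ± 1.36), completed the 10 (SD, n = 4 each). WT peaks were found in none of these 10 genes in any of the 4 libraries. Each had a higher scaled share in Tdg null hindbrain, with log2 differences from 1.21 to 1.48 and limma adjusted p from 0.000265 to 0.000285, but since the class fixes the direction these are descriptions. With thinning none of the 10 was called (adjusted p = 0.582).

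The genes kept with the highest WT shares included some of the longest of the genome. Wwox, an oxidoreductase gene at a fragile site (chr8:116963555-117876608), held 4700, 13600, 24400 and 1400 peak bases in WT litters A, O, Q and Z and 111900, 100400, 119800 and 130000 in Tdg null. Auts2, a regulator of neural development, held 1500, 6300, 22600 and 1700 and then 123600, 108900, 128800 and 141500. Agap1, an Arf GTPase-activating protein, held 1200, 7600, 14000 and 1200 and then 51700, 56500, 58200 and 63800. WT litters A and Z were the lowest in each, and no WT library reached a Tdg null library.

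Relative to the length under peaks of each library, Auts2 did not pass the test, with 1752 ± 271 scaled bases in WT and 1478 ± 107 without TDG (SD, n = 4 each; log2 difference -0.22, adjusted p = 0.226). Agap1 fell by 0.95 on the log2 scale (adjusted p = 0.00445), although its peak bases were 9.59 times as many. St6galnac3, a sialyltransferase, fell by 0.97 (adjusted p = 0.0285) with 11.4 times. Wwox fell by 0.96 (adjusted p = 0.0425) with 10.5 times, a call kept in 3 of 8 fits with 1 library left out and lost after thinning (adjusted p = 0.644). With peaks of at least 600 bp the Wwox difference was 0.11. Also among the genes with the highest WT shares were Tcte2, C130026I21Rik and Bahcc1, described below, and the gene models Gm20388 and Fgfr2, of 4435 and 3009 kb, which span several genes (log2 differences 0.08 and -0.40, adjusted p = 0.655 and 0.170). St6galnac3 lost its call with litter as a block (adjusted p = 0.0583).

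**Figure D3:**
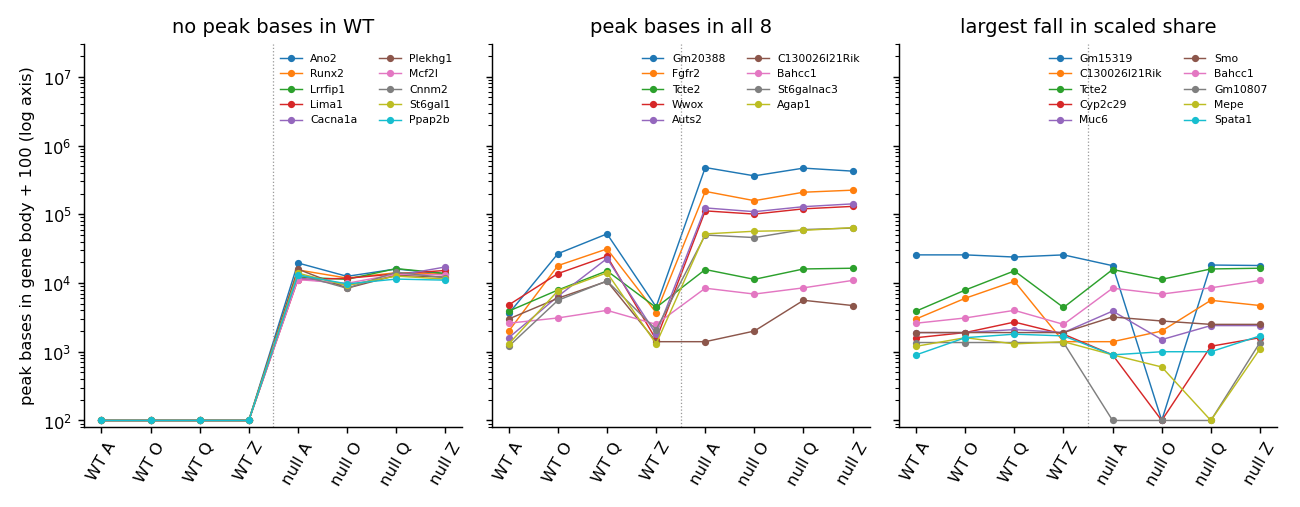
Peak bases in the gene body plus 100 (log axis) in each hindbrain library, for the 10 genes gained (left), 9 kept (middle) and the 10 with the largest fall in scaled share (right), 1 line a gene. Gained genes stand at 0 in WT and at 8285 to 19464 bases in Tdg null, kept genes rise in the mean except C130026I21Rik, and the genes at the right hold 0.25 to 2.91 times the WT bases in Tdg null.

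Of the 11 genes lost, the 10 described here had WT peaks in 2 libraries each. Sfi1, a centrin-binding protein of the centrosome, held 44166 bases in WT litters O and Q, none in A and Z and none in any Tdg null library. Rrs1, which acts in ribosome assembly, held 400 bases in litter A and 700 in litter Q. Calcoco2, an autophagy receptor, held 500 bases in each of litters Q and Z. Obox3, an oocyte homeobox gene, Vmn2r114, a vomeronasal receptor gene, and Amy2a4, an amylase gene, held 200 to 400 bases in the libraries that had any. Gm7792, Cdv3, Rfpl3s and 2700046A07Rik held 200 to 900. None of the 9 that were tested passed (smallest adjusted p = 0.173, Sfi1). Without WT litters A and Z, Sfi1 and 2700046A07Rik were called (limma adjusted p = 0.00124 and 0.00379), but that setting leaves out the WT libraries in which they held none.

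The scaled share was then tested gene by gene, to ask which genes took a larger or smaller part of the 5fC peaks without TDG. Of 21418 genes, 4055 had a mean of at least 20 scaled bases over the 8 libraries and were tested. Higher in Tdg null hindbrain at a limma adjusted p under 0.05 were 1096 genes, 27.0% of those tested, and lower were 99, 2.44%. Over all genes tested the median log2 difference was 0.36. Of the 1096 higher genes, 511 had no peak base in any WT library and 997 in at most 1, so that they passed the filter on low values through the Tdg null libraries. Among genes with peak bases in 2 or more WT libraries, limma called 1 higher and 42 lower. Values did not overlap between the genotypes in 1231 genes, or 30.4%. In 1095 of the 1096 higher genes WT litters A and Z held no peak base, and 1 median peak was worth 553 and 584 scaled bases there against 6.44 to 8.83 in the Tdg null libraries. With Tdg null libraries thinned to the WT peak numbers, limma called 0 genes higher (34 at an unadjusted p under 0.05; 0 or 1 in 10 draws) and 1 lower, Gm15319 (136 unadjusted; 1 to 3 in 10 draws). Without any 1 Tdg null library 577 to 621 genes were higher, and without WT litter Q 1818.

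**Figure D4:**
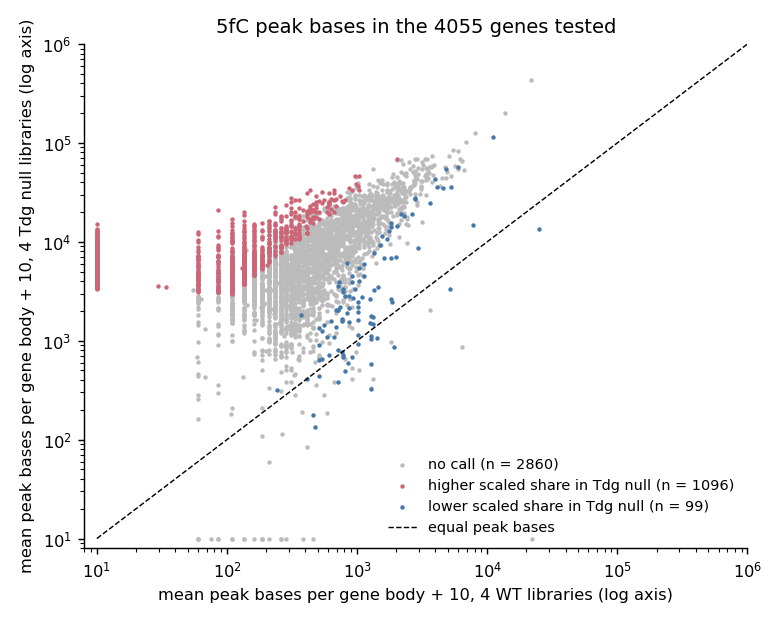
Mean peak bases per gene body plus 10 in the 4 WT (x) and the 4 Tdg null (y) libraries, both on log axes, for the 4055 genes tested, coloured by the limma call on the scaled share. Genes called higher lie far above the dashed line of equal bases with few WT bases, and genes called lower lie near it, 18 of the 99 below it.

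Nrxn3 and Slit3 had the largest increases in scaled share among the genes named. Nrxn3, a presynaptic adhesion molecule (chr12:89961320-91573375), held 0, 0, 4100 and 0 peak bases in WT litters A, O, Q and Z and 41400, 38100, 44100 and 61700 in Tdg null. Its scaled share rose from 88.5 ± 177 to 542 ± 91.5 (SD, n = 4 each; log2 difference 2.13 ± 0.54 (SE), adjusted p = 0.0180), a call kept in 4 of 8 fits with 1 library left out. Slit3, a secreted ligand of Robo receptors, held 0, 800, 7200 and 0 bases in WT and 77800, 52900, 73300 and 69600 in Tdg null (log2 difference 2.08 ± 0.64 (SE), adjusted p = 0.0390; 0.0592 with litter as a block), a call kept in 2 of the 8 fits. In both genes WT litter Q was highest and litters A and Z were at 0, and the groups did not overlap.

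Plxna4, a receptor subunit for semaphorins, held 1600 bases in WT litter Q and none in the other WT libraries, against 34800, 23500, 36100 and 30700 in Tdg null (log2 difference 1.90 ± 0.36 (SE), adjusted p = 0.00382). Plcb1, a phospholipase C, held 600 bases in each of WT litters O and Q and 31400, 22000, 27100 and 31100 in Tdg null (1.63 ± 0.35 (SE), adjusted p = 0.00742). Plxna4, Plcb1, Ncald, a neuronal calcium sensor, Dock4, an activator of Rac, and Ralgps1, an activator of Ral, kept their calls in all 8 fits with 1 library left out. The calls of Igsf21, a synaptic adhesion molecule, Sorcs3, a sorting receptor of neurons, and Setbp1 were kept in 5, 4 and 1 of them. Sorcs3 and Setbp1 lost theirs with litter as a block (adjusted p = 0.0583 and 0.0616), and Setbp1 also without WT litters A and Z (adjusted p = 0.104). Across these 10 genes peak bases were 32.6 to 93.0 times as many in Tdg null as in WT hindbrain. After thinning, each had an adjusted p of 0.582 or above, with positive differences from 0.61 to 2.47.

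Of all genes tested, 223 had peaks in all 4 WT libraries. The 99 genes with a lower scaled share were all among these, and 88 of the 99 had peaks in all 4 Tdg null libraries as well. Their median peak bases were 1000 in WT and 2450 in Tdg null. The median over genes of the ratio of Tdg null to WT bases was 2.50 for these 99 and 17.8 for all genes tested. In 18 of the 99 the Tdg null mean was below the WT mean in bases. With litter as a block, 760 genes were higher and 49 lower. Left without any 1 Tdg null library, the fit called 13 to 15 genes lower. Without WT litter Q it called 155, and without WT litters A and Z together 810, with 1276 higher.

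Gm15319 (chr8:19933242-19958788) had the largest decrease of any gene named. Peaks covered 25547, 25547, 23759 and 25547 bases of the 25.5 kb gene body in WT, nearly all of it, and 17759, 0, 18159 and 17859 in Tdg null. Every WT library was above every Tdg null library, and Tdg null litter O had no peak there. The log2 difference in scaled share was -5.49 ± 0.84 (SE), with adjusted p = 0.00109. After thinning to the WT peak numbers the limma adjusted p was 2.89e-12. That value is a description, as thinning removes most Tdg null peaks at random and empties a locus under few of them. The call was lost with the number of peaks in place of bases (-1.79, adjusted p = 0.0561), without scaling (-2.36, adjusted p = 0.184) and with 6 libraries thinned to the peak number of WT litter O (-1.72, adjusted p = 0.736). Without peaks over 5 kb too few bases were left for a test.

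Hedgehog signalling was represented by Smo, the transducer of the pathway (chr6:29685694-29711365), which held 1800 peak bases in each of the 4 WT libraries. In Tdg null litters A, O, Q and Z it held 3100, 2700, 2400 and 2400. Smo thus held more bases in every Tdg null library and a smaller share of them, with a log2 difference of -2.74 ± 0.70 (SE) and adjusted p = 0.0192, a call kept in 4 of 8 fits with 1 library left out. Bahcc1, a protein with a chromatin-binding BAH domain (chr11:120094261-120153610), held 2500, 3000, 3900 and 2400 bases in WT and 8300, 6800, 8400 and 10800 in Tdg null (-2.69 ± 0.64 (SE), adjusted p = 0.0128). One of its kept stretches is the intronic sequence printed above. Muc6, a gel-forming mucin, held 1800, 1800, 2000 and 1800 and then 3800, 1400, 2300 and 2300 (-2.80 ± 0.69 (SE), adjusted p = 0.0158), with a call kept in 4 of 8 fits. Smo and Muc6 also lost their calls with the number of peaks in place of bases (adjusted p = 0.0843 and 0.0890).

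Other genes of the 10 had a lower mean of bases without TDG, apart from Tcte2. Cyp2c29 and Mepe were lower in every litter, and Gm10807, Spata1 and C130026I21Rik were not. Cyp2c29, a cytochrome P450, held 1500, 1800, 2600 and 1700 bases in WT and 800, 0, 1100 and 1500 in Tdg null (log2 difference -3.01 ± 0.62 (SE), adjusted p = 0.00635). Mepe, a bone matrix protein, held 1100 to 1500 and then 0 to 1000, and Gm10807 held 1261 in each WT library and in Tdg null litter Z only. Spata1, a testis gene, held 800 to 1700 and then 800 to 1600. C130026I21Rik held 2900, 5900, 10500 and 1300 and then 1300, 1900, 5500 and 4600 (-3.60 ± 0.42 (SE), adjusted p = 0.000265). Without scaling to covered length, only Gm10807 of these 5 was called (adjusted p = 0.00778), the others having adjusted p of 0.0696 for Mepe, 0.0890 for Cyp2c29, 0.415 for Spata1 and 0.611 for C130026I21Rik. Of these genes, only Cyp2c29 and C130026I21Rik kept their calls in all 8 fits with 1 library left out. Tcte2, a gene of the t-complex, held 3800, 7800, 14900 and 4300 bases in WT and 15600, 11200, 15900 and 16300 in Tdg null, 1.92 times as many, and its log2 difference was -3.33 ± 0.42 (SE), adjusted p = 0.000353. Tcte2 lost this call without peaks over 5 kb (-2.01, adjusted p = 0.221), with the number of peaks in place of bases (-1.45, adjusted p = 0.147) and after thinning (-3.47, adjusted p = 0.113).

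Windows of 100 kb were tested in the same way, so that sequence between genes was included. Of 23978 windows 12307 were tested, of which 4272 (34.7%) were higher and 236 (1.92%) lower in Tdg null hindbrain. All 4272 higher windows had no peak in WT litters A and Z, and 1858 had none in any WT library, so that these were tested through the Tdg null libraries. Among windows with peak bases in 2 or more WT libraries, 0 were higher (32 at an unadjusted p under 0.05) and 125 lower. All 236 lower windows had peaks in all 4 WT libraries, and 60 held fewer bases in Tdg null. In the first Mb of assembled sequence lay 18 of the 236 (7.63%), against 0.593% of the windows tested. With litter as a block, 3850 windows were higher and 121 lower. After thinning, limma called 0 higher (90 at an unadjusted p under 0.05) and 9 lower, and 0 and 9 to 16 over 10 draws. Without any 1 Tdg null library 54 to 64 windows were lower, and without WT litter Q 421.

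The largest increase was in a window of Glis1, a zinc finger transcription factor (chr4:107100001-107200000). It held no peak base in WT and 16300, 11700, 15100 and 14700 in the Tdg null libraries. Its log2 difference of 1.43 is a description, as the WT zeros fix the direction. A window without protein-coding genes (chr7:143000001-143100000) went from 0 in each WT library to 14200, 13900, 12500 and 15400. The window from Dos to Mum1, which includes Cirbp, a cold-inducible RNA-binding protein, and Efna2, an ephrin ligand (chr10:79600001-79700000), held 1000 bases in WT litter Q only and 17400, 18100, 16200 and 18300 in Tdg null (log2 difference 1.39, adjusted p = 0.00544). Windows of Chst11, a chondroitin sulfotransferase, and Lima1 followed, with none in WT and means of 13950 and 12825 bases in Tdg null.

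The window with the largest decrease (chr8:19900001-20000000) contains Gm15319. It held 71100, 72900, 40300 and 71200 bases in WT and 33900, 1600, 32000 and 34100 in Tdg null (log2 difference -6.22 ± 0.98 (SE), adjusted p = 0.000950). The window of Sfi1 and Drg1 (chr11:3000001-3100000), at the start of the assembled chromosome, held 1700, 53000, 53100 and 1300 and then 2700, 600, 2400 and 2600 (-4.90 ± 0.56 (SE), adjusted p = 0.000127). In litters A and Z the Tdg null embryo held more bases there than the WT embryo, and in litters O and Q far fewer.

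The other windows with large decreases contain Tcte2 (chr17:13700001-13800000), with 3800, 7200, 13400 and 3400 bases in WT and 0, 3300, 4700 and 4100 in Tdg null, and genes of the Speer4 family at chr5:15100001-15200000 and chr5:14900001-15000000. The log2 differences were -4.20, -4.14 and -3.92. In bases, the mean ratios of Tdg null to WT in these 3 windows were 0.435, 0.645 and 0.697. These 5 decreases were also called after thinning to the WT peak numbers, and none of the 5 increases was. As thinning removes most Tdg null peaks at random, windows with few of them are emptied. Decreases called after it are therefore a description and no further evidence. With 6 libraries thinned to the peak number of WT litter O none of the 10 was called (adjusted p = 0.500 to 0.764). Without peaks over 5 kb the windows of Gm15319 and Tcte2 were not called (log2 differences -0.41 and -2.33, adjusted p = 0.595 and 0.227). All 5 decreases lost their call without scaling to covered length (log2 differences -2.27 to -0.96, adjusted p = 0.0569 to 0.258), and those other than the window of Gm15319 with a pseudocount of 1000 (adjusted p = 0.0905 to 0.213).

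Gene lists of neural and other tissues were described by how many members carried peaks in all 4 Tdg null libraries, beside 45.8% of all protein-coding genes and 95.4% of those over 100 kb long. Files of 5fC peaks hold no expression, so the tissue could not be checked by its markers. Of 67 genes of axon guidance and adhesion 63 (94.0%) were marked in all 4 Tdg null libraries, 47 were kept and 4 gained, and their median length was 360 kb. Of 58 tested, 17 were higher and 0 lower, a share of calls close to the 27.0% of all genes, with a median difference of 0.67 against 0.36 for all genes and 0.54 for those over 100 kb long. Besides Slit3, the leading members were Cdh4, a cadherin, with 500 to 10100 bases in WT and 40700 to 56100 in Tdg null, and Epha3, an ephrin receptor, with 1300 to 2800 and then 11100 to 20300. Neither passed the test (adjusted p = 0.230 and 0.0733).

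Of 50 genes of synaptic receptors and channels 47 (94.0%) were marked in all 4 Tdg null libraries, 22 were kept and 11 gained, at a median length of 356 kb. The median part of the gene body under Tdg null peaks was 1.91% in this list and 4.45% in that of axon guidance and adhesion. Of 36 tested, 14 were higher and 0 lower, beside 27.0% and 2.44% of all genes tested, with a median difference of 0.67. Cacna1c, an L-type calcium channel, held 0, 800, 2800 and 300 bases in WT and 47300, 34300, 49400 and 48200 in Tdg null. Grik4, a kainate receptor subunit, held 0, 1783, 4383 and 0 and then 45183, 35883, 44583 and 43983. The groups did not overlap in either, and neither passed the test (adjusted p = 0.0818 and 0.122), nor did Cacna2d3, a calcium channel accessory subunit (adjusted p = 0.122).

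Transcription factors of the hindbrain were shorter genes, with median lengths of 11.7 kb for patterning genes and 9.37 kb for neural factors. Of 47 hindbrain patterning genes 19 (40.4%) were marked in all 4 Tdg null libraries, 23 had no peak in any of the 8, and of 13 tested 4 were higher and 1 lower, beside 27.0% and 2.44% of all genes tested. Meis2, a homeodomain partner of Hox proteins, held 400, 2700, 2200 and 500 bases in WT and 26600, 16900, 24300 and 24900 in Tdg null (adjusted p = 0.361). Gli2, an effector of Hedgehog signalling, held 0, 2800, 5800 and 0 and then 26000, 23100, 26300 and 29000 (adjusted p = 0.535). Among 49 neural factors 21 (42.9%) were marked in all 4 Tdg null libraries and 13 were kept, and of 15 tested 2 were higher and 1 lower, beside the same shares of all genes. The lower was Zfhx3, a zinc finger homeobox factor (log2 difference -1.38 ± 0.30 (SE), adjusted p = 0.00919), with 1500 to 8600 bases in WT and 27100 to 40200 in Tdg null. Sox5, a regulator of neuronal fate, and Msi2, an RNA-binding protein of progenitors, had adjusted p of 0.690 and 0.306.

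Genes of other tissues carried peaks in Tdg null hindbrain as well. In all 4 Tdg null libraries were 22 of 38 heart genes (57.9%), 10 of 21 hepatocyte genes (47.6%), 11 of 16 erythroid genes (68.8%) and 15 of 23 genes of mesenchyme and vessels (65.2%). Kept genes numbered 6, 0, 4 and 5 in these lists, and higher genes 3 of 11 tested, 1 of 2, 0 of 5 and 2 of 10, beside 10.6% kept of all genes and 27.0% higher of all tested. The hepatocyte gene called was Nr1h4, the bile acid receptor, with 500 bases in WT litter Q alone and 3800 to 5600 in Tdg null (adjusted p = 0.0247; 0.0611 with litter as a block). This call is a description, as Nr1h4 passed the filter on low values through the Tdg null libraries. Its mean scaled share was 10.8 in WT and 54.2 in Tdg null. Prox1, a homeobox factor of liver and neural progenitors, held 1000 in WT litter Q alone and 6000 to 11100 in Tdg null (adjusted p = 0.0504).

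Among genes of heart, blood and vessels, Slc8a1, the sodium-calcium exchanger, held 0 to 2000 bases in WT and 13100 to 17800 in Tdg null (adjusted p = 0.831). The troponin genes Tnnc1 and Tnni1 had adjusted p of 0.358 and 0.635. Kit, the receptor of stem cell factor, held 600, 2800, 6200 and 0 in WT and 8500 to 10500 in Tdg null (adjusted p = 0.289). Runx1, a factor of blood formation, Ank1, an erythrocyte ankyrin, and the vessel genes Flt1 and Fli1 did not pass the test (adjusted p = 0.337, 0.420, 0.437 and 0.167). Erg, a factor of endothelial cells, was the only lower gene of these 4 lists, with 400 to 4300 bases in WT and 12000 to 18200 in Tdg null (log2 difference -1.01, adjusted p = 0.0356; 0.173 with litter as a block).

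Genes that act in demethylation and repair were marked in all 4 Tdg null libraries in 17 of 25 cases (68.0%, beside 45.8% of all genes), with 9 gained and 4 kept, beside 25.2% and 10.6% of all genes. Of 6 tested, 2 were higher and 0 lower, beside 27.0% and 2.44%. Dnmt3a, a de novo methyltransferase, held 900 bases in WT litter Q alone and 8700 to 11100 in Tdg null (log2 difference 0.93, adjusted p = 0.0204; 0.0643 with litter as a block). Its mean scaled share was 19.4 in WT and 121 in Tdg null. It thus passed the filter on low values through the Tdg null libraries, and its call is a description. Tet3 and Tet2, which oxidise 5-methylcytosine, held 0 to 1400 and 0 to 1000 in WT and 5700 to 7700 and 2700 to 3500 in Tdg null (adjusted p = 0.618 and 0.798). Tdg itself (chr10:82092573-82113544) held no peak base in any WT library and 1300, 0, 900 and 700 in Tdg null litters A, O, Q and Z, too few to be tested, and peaks cannot show the deletion. Ribosomal and housekeeping genes, with a median length of 3.81 kb, were least marked of these lists: 7 of 39 (17.9%) in all 4 Tdg null libraries and 0 in any WT library. Rpl11, Gapdh and Eef1a1 held 921 to 1821, 430 to 1630 and 558 to 1458 bases in Tdg null.

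The genes with the largest part of the body under peaks in Tdg null hindbrain, among those of at least 20 kb, are given as a description chosen after their values were seen. After Gm15319 the next 9 in order began with Mxra7, with 26.3% ± 1.32 of 25.0 kb, Akt1, a kinase of growth factor signalling, with 25.96% ± 8.93, and Egln3, an oxygen-sensing hydroxylase, with 25.4% ± 5.64 (SD, n = 4 each). BC034090 had 24.7% ± 4.99, Smyd2, a lysine methyltransferase, 24.3% ± 1.18, and Axin2, a target and inhibitor of Wnt signalling, 23.7% ± 3.404. Gnai2, a subunit of inhibitory G proteins, had 23.4% ± 6.96, Irf8, an interferon regulatory factor, 23.2% ± 13.4, and Ccnjl 21.9% ± 2.75. In WT these 9 genes had at most 17.9% of the body under peaks, reached by Akt1 in litter Q. The median over all protein-coding genes in Tdg null hindbrain was 1.94%.

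Chromosomes 8, 14 and 15 differed most between the genotypes among those without overlap, and no autosome passed the test after adjustment. For each library the share of peak bases on a chromosome was set against its share of ungapped length. An exact permutation test of 4 against 4 gave p = 0.0286 for 8 of 19 autosomes and an adjusted p of 0.0679 for each of these, so 0 of 19 passed. As this exact permutation p is the smallest possible, an adjusted p under 0.05 would have needed 11 autosomes to reach it. Chromosome 8 had log2 values of 1.48, 0.68, 0.35 and 1.505 in WT litters A, O, Q and Z and 0.14, 0.19, 0.17 and 0.17 in Tdg null, a difference of -0.83. It holds the window of Gm15319, and without peaks over 5 kb the difference was -0.24. Such long peaks held 7.87%, 2.89%, 0.904% and 8.32% of WT peak bases and at most 0.0371% in Tdg null.

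Chromosome 14 had the largest gain, from -0.70, -0.46, -0.33 and -1.21 in WT to -0.24, -0.27, -0.24 and -0.24 in Tdg null, a log2 difference of 0.43 (0.35 without peaks over 5 kb). Chromosome 15 differed by 0.28, chromosomes 2 and 7 by 0.16, chromosome 9 by 0.14, chromosome 6 by 0.11 and chromosome 5 by -0.15. Without peaks over 5 kb these became 0.20 for chromosome 15, 0.083 and 0.084 for chromosomes 2 and 7, 0.066 for chromosome 9, 0.034 for chromosome 6 and -0.22 for chromosome 5, and the unadjusted exact permutation p rose to 0.114, 0.143 and 0.343 for chromosomes 7, 9 and 6. Chromosome 11 moved from 0.19 (exact permutation p = 0.314) to 0.20 in that setting, without overlap (exact permutation p = 0.0286). In each of these 8 the 4 litters moved the same way. The Tdg null libraries lay closer together than the WT libraries on every autosome.

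**Figure D5:**
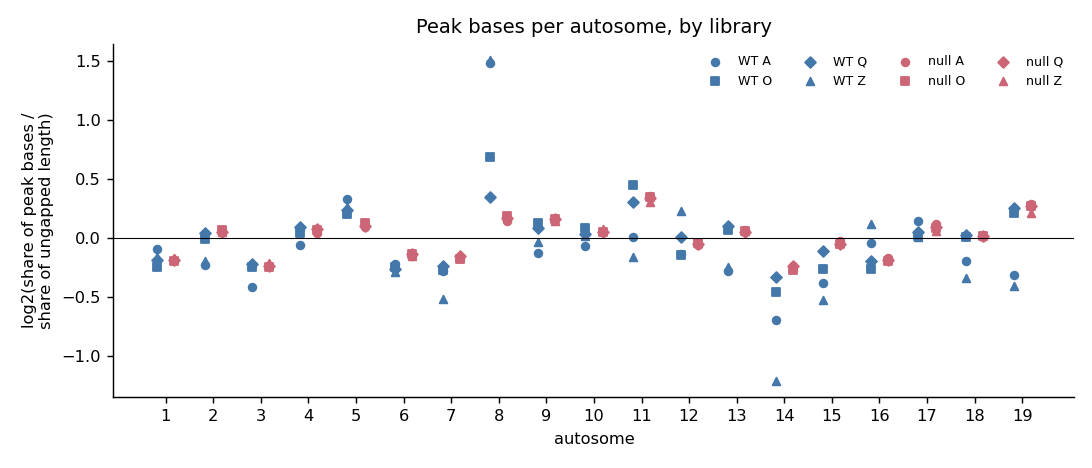
Log2 of the share of peak bases on each autosome over its share of ungapped length, for WT (blue) and Tdg null (red) libraries, with a marker for each litter. WT libraries spread from -1.21 (chromosome 14, litter Z) to 1.505 (chromosome 8, litter Z), and Tdg null libraries from -0.27 to 0.35.

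The genotype difference in hindbrain was set against that in heart and in carcass, each with 2 WT and 2 Tdg null libraries, by an interaction term over 16 libraries. Of 4511 genes tested, 268 (5.94%) had another difference in hindbrain than in heart, 180 of them a higher one, and 201 (4.46%) another than in carcass, 196 of them higher. Ano2 had no scaled bases in the WT hindbrains, 136 and 242 in the WT hearts and 278 and 247 in the WT carcasses, with 144 to 213 in Tdg null hindbrain, 131 and 108 in heart and 196 and 182 in carcass. The log2 difference in hindbrain was thereby 1.85 above that in heart and 1.80 above that in carcass, and for Runx2 2.31 and 2.06 above. As genes were named by rules that use the hindbrain values, and these 2 for having none in WT hindbrain, the values of single genes here are descriptions.

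Agap1 moved the other way. Its scaled share was 1209 to 1701 in WT and 566 to 831 in Tdg null hindbrain, 0 and 415 in WT and 719 and 798 in Tdg null heart, so that the hindbrain difference less that of heart was -2.87. Meis2, with 0 in both WT hearts and 305 and 338 in the Tdg null hearts, stood at -2.58. Gm15319 held no peak in any carcass library, so its comparison with carcass repeats the hindbrain difference of -5.49. In heart its difference was -6.21. With all 16 libraries thinned to the smallest peak number, limma called 0 genes in either comparison (111 and 114 at an unadjusted p under 0.05). Leaving out 1 library gave 151 to 775 genes for heart, the highest without a WT heart. For carcass it gave 20 to 787, the lowest without a Tdg null carcass and the highest without WT hindbrain litter Q.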

How the data were processed

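The authors trimmed reads with Trim Galore, aligned them to NCBIM37 (mm9) with Bowtie2 and called peaks in each library with MACS, per the submitters' processing notes and the methods. The deposited positions give where each peak begins and ends, on a 100 bp grid. They hold no counts, so the sequencing depth is unknown, and no filter on reads that match several places is named in the sources used here. Peaks on the sex chromosomes, the mitochondrial genome and unplaced sequence were left out, and no peak passed a chromosome end.

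Peak bases were summed per gene body (GENCODE M1, NCBIM37) and per 100 kb window with at least 50 kb of ungapped sequence, and divided by the Mb of autosomal peak bases of the library. Features with a mean of at least 20 bases per Mb were tested as log2(value + 100) with limma 3.58.1 (lmFit, eBayes with trend) in R 4.3.3, with Benjamini-Hochberg adjustment. A log2 difference on this scale understates the change of low values. For the comparison with heart and carcass, the embryo entered as a random block. Shares and chromosomes were compared by two-sided exact permutation tests that enumerate every arrangement, in Python 3.11.15. The fits were first run on simulated data with known changes, and the outcome is not given here.

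The pairing of genotypes comes from the litter in the labels. Deviations from the group means correlated at 0.05, 0.06, -0.04 and -0.04 between embryos of 1 litter, and the litter block is given where it changes a call.

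The members, gene lists and tests were chosen with earlier results of these data known. The genes named are Tdg, the 10 largest increases and decreases among called genes without overlap between genotypes, up to 10 lost, kept and gained genes, the 3 genes with the highest mean share of each of 10 lists, and the 5 windows with the largest change in each direction. A few genes that these rules choose are not reported here. Alternatives changed the pseudocount, filter, scaling, peak length, merging, gene body, window size, litter block and libraries, or thinned the Tdg null libraries at random. Those without peaks over 5 kb, the 9 further random draws, the thinning to litter O and the thinned or reduced sets of 16 libraries were chosen after seeing the data.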

Additional observations from a re-analysis of the deposited data

Results flagged for a closer look

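In 22 of 200 groups of 4 libraries, 1 library stood apart, in that its distance to the nearest of the others took up more of the group's range than Dixon's test allows at the 95% level. Chance gives about 1 in 20 such groups. In 10 of the 22 the other 3 libraries were at 0, so the fraction was 1: WT litter Q for Nrxn3, Plxna4, Igsf21, Dock4, Setbp1, Ralgps1, Prox1, Nr1h4 and Dnmt3a, and Tdg null litter Z for Gm10807.

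Tdg null litter O stood apart by its covered length of 68.0 Mb (0.854 of the range), by its chromosome 14 share (0.845) and by having no peak in Gm15319 (0.945). WT litter Z was apart for its chromosome 7 share (0.840) and for Calcoco2 (0.926), Cdv3 (0.926) and Gm7792 (0.904). WT litter A was apart for Vmn2r114 (0.941), Rfpl3s (0.896) and Rrs1 (0.863). Among kept genes, Tdg null litter Z was apart for Gm20388 (0.885) and Tdg null litter A for St6galnac3 (0.955).

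The genotype difference differed between hindbrain and another tissue, by the limma interaction term, in 9 named genes. Against heart the log2 difference in hindbrain was higher by 2.78 for Nrxn3, 2.31 for Runx2, 1.85 for Ano2, 1.25 for Cacna1a and 1.03 for St6gal1. For Agap1, Meis2 and Lrrfip1 the hindbrain difference less that of heart was -2.87, -2.58 and -1.02. Against carcass it was higher by 2.06 for Runx2, 1.80 for Ano2 and 1.09 for Lrrfip1, and for Gm15319, which had no peak in carcass, it was -5.49, the hindbrain difference itself. The genes were named by rules that use the hindbrain values, so these are descriptions. Adjusted p was from 0.00118 to 0.0461 for these, and none of the 4633 genes tested was called after thinning of the 16 libraries.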

How the results depend on the processing

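The gene and window counts depended on how sparse libraries were treated. Against 1096 genes higher and 99 lower, there were 7236 higher without a filter on low values, 3919 and 3 without scaling to covered length, 1760 higher with peaks of at least 600 bp, 1753 and 149 with 10 kb on either side of the gene body, 1 and 42 with peak bases in 2 or more WT libraries, and 0 and 0 with 6 libraries thinned to the peak number of WT litter O. Lower genes numbered 28 with a pseudocount of 1000, 37 with the number of peaks in place of bases and 810 without WT litters A and Z. Over 10 random thinnings of the Tdg null libraries 0 or 1 gene was higher and 1, 2 or 3 lower. Leaving out 1 library gave 577 to 1818 higher and 13 to 155 lower. Of 37 named genes with a call, 35 of 36 tested lost it after thinning, and each single Tdg null library left out cost 14 their call. For 100 kb windows, against 4272 higher and 236 lower, the counts were 9923 higher without a filter, 11995 and 17 without scaling, 0 and 125 with peak bases in 2 or more WT libraries, 0 and 0 with 6 thinned libraries, 209 and 67 for 1 Mb windows, 25 lower with a pseudocount of 1000 and 2054 lower without WT litters A and Z. Thinning gave 0 higher and 9, 12, 13, 14, 15 or 16 lower, and leaving out 1 library 2849 to 6053 higher and 54 to 421 lower.

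With litter as a replicate block, 49 genes and 121 windows were lower (760 and 3850 higher), and 7 of the 37 named genes lost their call. The exact paired test by litter gave p = 0.125 for GC content of peak bases (-0.855) and for CpG dinucleotides per kb of peak bases (-3.51), as 4 pairs allow no smaller p. Without WT litters A and Z these differences were -0.702 and -4.04, each at p = 0.0667, the smallest that an exact test of 2 against 4 allows, and with peaks of at least 600 bp the CpG difference was -2.13. Over single libraries left out they ranged from -0.956 to -0.700 and from -3.87 to -3.14. The share of peak bases in gene bodies over 100 kb long changed sign without WT litters A and Z (-0.705), and the share of peak bases within 1 kb of a transcription start with peaks of at least 600 bp (-0.137).

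The genes kept numbered 872 with peaks of at least 600 bp and 71 after thinning, and 702 to 2292 with 1 library left out. The genes lost numbered 6, 441 and 2 to 16 in the same settings, and 4 without WT litters A and Z. The genes gained numbered 2 after thinning. For the comparison with heart and with carcass, a pseudocount of 10 gave 175 and 383 genes, thinning 0 and 0, and single libraries left out 151 to 775 and 20 to 787. Without scaling the log2 difference turned positive for Tcte2 (1.13), Muc6 (0.31), Smo (0.53), Bahcc1 (1.51), Wwox (4.04), St6galnac3 (3.95), Agap1 (3.97), Zfhx3 (3.46) and Erg (3.55), and with peaks of at least 600 bp for Wwox (0.11) and Erg (0.29). The cause of these changes was not tested, beyond what each setting leaves out. Signals below the peak threshold of a library are not seen in intervals.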
